A study of Mus musculus with 9 samples.

Results

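The genes described here are 8 genes of the Schwann cell and its myelin, *Sox10*, *S100b*, *Pmp22*, *Mbp*, *Prx*, *Ncmap*, *Cldn19* and *Mpzl3*, taken by symbol from a table of 55471 Ensembl genes. They were chosen by name, with no threshold on a measured value, but with earlier results of the same genotype comparison known, so the differences given for its members are descriptions and not independent evidence. RNA came from the gastrocnemius, a calf muscle, of 5 *Shank3Δ11(-/-)* mice (KO1 to KO5) and 4 *Shank3(+/+)* mice (WT1 to WT4), all labelled C57BL/6 and taken at postnatal day 0 to 1, with 1 library per mouse. *Shank3* encodes a scaffold protein of the synapse, and *Shank3Δ11(-/-)* mice are homozygous for the Δ11 allele, which is present in every tissue and not only in muscle or nerve. The methods of the study name C57BL/6JRj for the matings that gave the knock-out mice. The labels give no sex, and the exact age within the postnatal window is not given per mouse.

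Schwann cells wrap the axons of peripheral nerves, and a muscle sample holds them because nerve branches run through the muscle. Immature Schwann cells sort axons before birth, and those that take up a single large axon leave the cell cycle and build compact myelin during the first postnatal weeks. Sox10, the transcription factor of the whole lineage, is made before and after this step, whereas myelin proteins are made in large amounts only after it. At birth most of the myelin of a limb nerve has still to be formed.

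Library totals ranged from 26444372 counts in KO5 to 40471957 in KO4, with a median of 31435732. CPM, the unit of the levels here, is the usual per-library scaling of a gene count, with library sizes adjusted by TMM factors from edgeR. The study left out KO2 and KO4, giving too few total reads and a lower library quality as the reason. In the deposited counts KO4 had the highest total, and KO2, with 28211941, was above KO5. These totals are counts in genes and not all reads. The main comparison followed the study and set 3 *Shank3Δ11(-/-)* mice (KO1, KO3, KO5) beside the 4 *Shank3(+/+)* mice, and a repeat used all 9. The criterion of the study for a call was an unadjusted p below 0.05 together with an FDR (Benjamini-Hochberg adjusted p) below 25%. *Shank3* itself was counted at 29.3, 31.0 and 34.4 CPM in KO1, KO3 and KO5 and between 32.4 and 38.5 CPM in *Shank3(+/+)*, and a count over the whole gene does not check the allele. Muscle genes identified the tissue, with *Acta1*, skeletal actin, between 17416 and 21203 CPM in the 9 mice. Y-linked genes divided the mice into 5 with counts (KO1, KO2, KO4, WT1 and WT2) and 4 nearly without (KO3, KO5, WT3 and WT4). In a bulk sample, fewer Schwann cells and less RNA per Schwann cell cannot be told apart.

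All 8 genes were detected in all 9 mice, and compared per length they spread over a wide range. *Pmp22*, a membrane protein of compact myelin that fibroblasts and other tissues also make, had a median of 105 RPKM over the 9 mice and a range from 80.1 to 121 RPKM. RPKM here is CPM per kilobase of annotated exon. The next gene was *S100b*, a calcium-binding protein of Schwann cells that is also made by chondrocytes and adipocytes, with a median of 5.62 RPKM. The ranges of *Pmp22* and *S100b* did not overlap, whereas each later gene overlapped with its neighbour in the order. *Prx* had a median of 5.56 RPKM, *Sox10* 4.70 RPKM, *Mbp* 3.27 RPKM, *Mpzl3* 1.27 RPKM, *Cldn19* 1.06 RPKM and *Ncmap* 0.240 RPKM. Genes farther apart in the order could still be separate, as *S100b* (4.98 to 7.48 RPKM) was from *Mpzl3* (0.400 to 2.37 RPKM), *Cldn19* (0.542 to 3.75 RPKM) and *Ncmap* (0.0943 to 1.26 RPKM).

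The highest mouse was 1.91-fold above the lowest for *Sox10* and 1.503-fold for *S100b*, against 1.508-fold for *Pmp22* and from 2.83-fold to 13.4-fold for the other 5 genes. *Sox10* (ENSMUSG00000033006, chromosome 15 from 79154908 to 79165240) was counted at 13.6, 14.4, 10.3 and 15.7 CPM in WT1 to WT4 and at 16.6, 17.6, 12.1, 9.24 and 15.8 CPM in KO1 to KO5. The highest and lowest values, those of KO2 and KO4, both belonged to *Shank3Δ11(-/-)* mice, and the groups overlapped. KO1, KO3 and KO5 over *Shank3(+/+)* gave a log2 fold change of 0.12 (standard error 0.17, edgeR p = 0.488, FDR = 1.00, exact permutation test p = 0.486). *S100b* (ENSMUSG00000033208, chromosome 10 from 76253853 to 76261159) was counted at 11.1, 9.66, 7.68 and 7.74 CPM in WT1 to WT4 and at 7.39, 8.04, 8.33, 9.45 and 10.02 CPM in KO1 to KO5. Its groups also overlapped, and WT1 was the highest mouse and KO1 the lowest. For *S100b* the log2 fold change was -0.08 (standard error 0.18, edgeR p = 0.643, FDR = 1.00, exact permutation test p = 0.686).

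**Figure D1:**
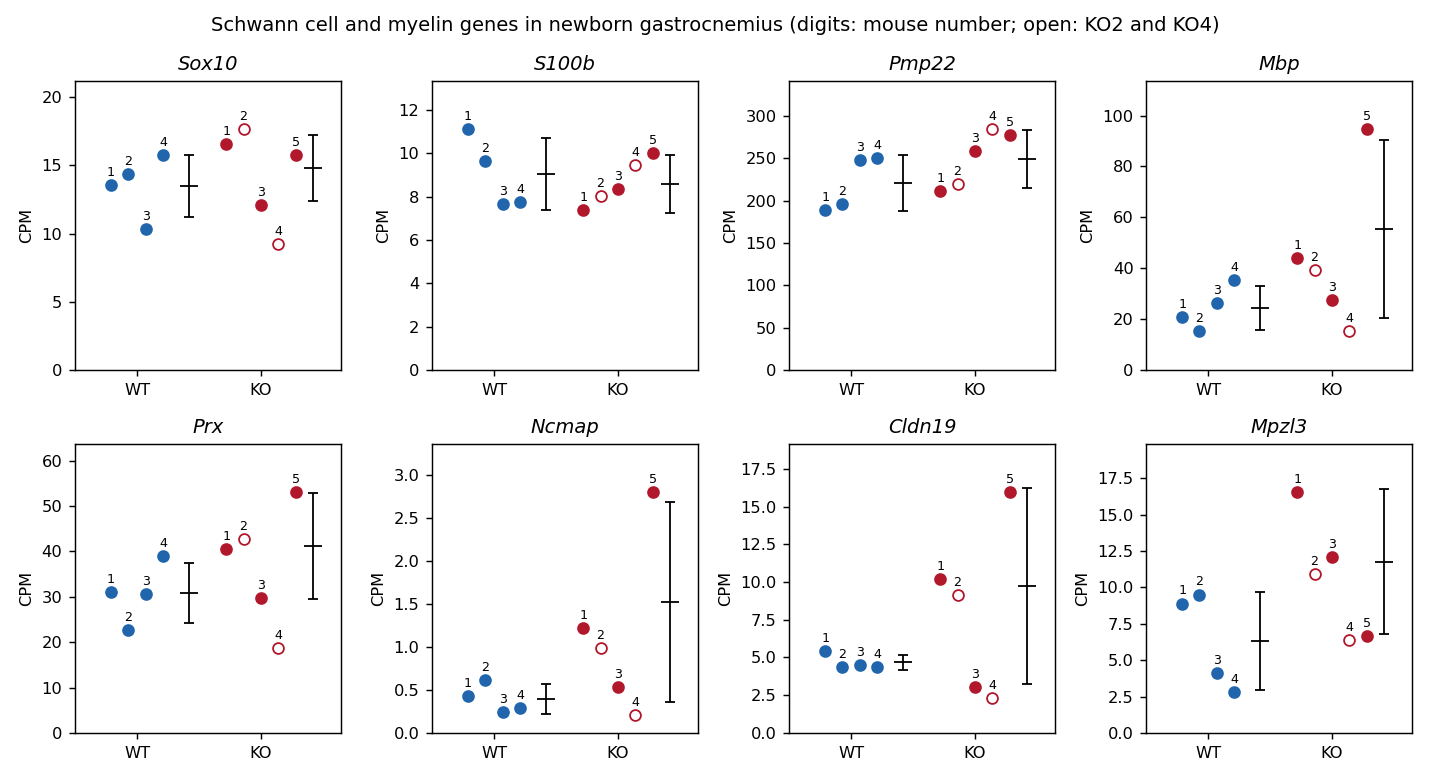
Level of each of the 8 genes in every mouse, in CPM on a linear axis that starts at 0. Blue points are *Shank3(+/+)*, red points *Shank3Δ11(-/-)*, open points the mice KO2 and KO4, digits the mouse number, and bars the mean and SD of 4 *Shank3(+/+)* mice and of KO1, KO3 and KO5. *Mbp*, *Prx*, *Ncmap* and *Cldn19* are highest in KO5, and *Prx*, *Ncmap*, *Cldn19* and *Sox10* are lowest in KO4.

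*Mbp* (ENSMUSG00000041607, chromosome 18 from 82475146 to 82585637) encodes myelin basic protein, which holds the cytoplasmic faces of the myelin membrane together. It was counted at 21.0, 15.2, 26.5 and 35.3 CPM in WT1 to WT4 and at 44.0, 39.4, 27.7, 15.5 and 94.6 CPM in KO1 to KO5. KO5 lay 2.68-fold above the highest *Shank3(+/+)* mouse, KO1 and KO2 were also above all *Shank3(+/+)* mice, and KO4 was near the lowest of them. The mean was 55.4 ± 34.9 CPM (SD, n = 3) in KO1, KO3 and KO5 and 24.5 ± 8.55 CPM (SD, n = 4) in *Shank3(+/+)*. This gave a log2 fold change of 1.17 (standard error 0.45, edgeR p = 0.0336, FDR = 1.00, exact permutation test p = 0.114). Without KO5 the log2 fold change was 0.53 (standard error 0.32, edgeR FDR = 1.00).

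*Prx* (ENSMUSG00000053198, chromosome 7 from 27499324 to 27520214) encodes periaxin, a scaffold of the outer Schwann cell membrane that links it to the basal lamina. It was counted at 31.0, 22.7, 30.7 and 39.0 CPM in WT1 to WT4 and at 40.6, 42.8, 29.7, 18.8 and 53.1 CPM in KO1 to KO5. As for *Mbp*, KO5, KO1 and KO2 were above every *Shank3(+/+)* mouse, while KO3 lay within their range and KO4 below it. For *Prx* the log2 fold change was 0.40 (standard error 0.21, edgeR p = 0.0859, FDR = 1.00, exact permutation test p = 0.229), and 0.17 (standard error 0.21) without KO5.

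*Ncmap* (ENSMUSG00000043924, chromosome 4 from 135369576 to 135398227) encodes a membrane protein of noncompact myelin and had the lowest level of the 8 genes. It was counted at 0.431, 0.620, 0.239 and 0.293 CPM in WT1 to WT4 and at 1.22, 0.984, 0.535, 0.210 and 2.81 CPM in KO1 to KO5. These values rest on 7 to 21 reads per mouse in *Shank3(+/+)* and on 39, 29, 17, 8 and 74 reads in KO1 to KO5, so the counting error is large. KO5 was 4.53-fold above the highest *Shank3(+/+)* mouse, and KO4 was the lowest of the 9 mice. The log2 fold change was 1.90 (standard error 0.53, edgeR p = 0.00438, FDR = 1.00, exact permutation test p = 0.0571), the largest difference and the smallest p of the 8 genes in these 7 mice. Without KO5 it was 1.12 (standard error 0.47, edgeR FDR = 1.00).

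*Cldn19* (ENSMUSG00000066058, chromosome 4 from 119255414 to 119262438) encodes claudin-19, which forms the tight junctions between the membrane layers of the Schwann cell. It was counted at 5.41, 4.37, 4.50 and 4.39 CPM in WT1 to WT4 and at 10.2, 9.13, 3.02, 2.31 and 16.0 CPM in KO1 to KO5. The *Shank3(+/+)* mice lay close together, and each *Shank3Δ11(-/-)* mouse lay outside their range, KO1, KO2 and KO5 above and KO3 and KO4 below. The SD was 6.49 CPM in KO1, KO3 and KO5 (n = 3) and 0.50 CPM in *Shank3(+/+)* (n = 4). The log2 fold change was 1.05 (standard error 0.43, edgeR p = 0.0388, FDR = 1.00, exact permutation test p = 0.314), and 0.49 (standard error 0.38) without KO5. Without KO3 it was 1.48 and met the criterion of the study (edgeR FDR = 0.229). In that fit 4 of all genes tested were called, and 794 had an unadjusted p below 0.05.

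*Pmp22* (ENSMUSG00000018217, chromosome 11 from 63128982 to 63159547) was counted at 189, 196, 248 and 251 CPM in WT1 to WT4 and at 211, 219.9, 259, 284 and 278 CPM in KO1 to KO5. The low values were those of KO1, KO2, WT1 and WT2 and the high ones those of KO3, KO5, WT3 and WT4 together with KO4. The spread followed the division by Y-linked genes except for KO4. Mouse number divided the values without exception, with numbers 1 and 2 low and 3 to 5 high. For *Pmp22* the log2 fold change was 0.17 (standard error 0.15, edgeR p = 0.278, FDR = 1.00, exact permutation test p = 0.286), and 0.09 (standard error 0.09) with the level of Y-linked genes as a covariate. Whether either division has a part in the level of *Pmp22* was not tested.

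*Mpzl3* (ENSMUSG00000070305, chromosome 9 from 45055186 to 45077436) encodes an adhesion protein related to myelin protein zero that is best known from skin and hair. It was counted at 8.89, 9.51, 4.13 and 2.80 CPM in WT1 to WT4 and at 16.6, 10.9, 12.1, 6.38 and 6.64 CPM in KO1 to KO5. KO5, the highest mouse for *Mbp* and *Ncmap*, was 6th of the 9 mice here, and KO1, KO3 and KO2 were the highest. The log2 fold change was 0.89 (standard error 0.45, edgeR p = 0.0818, FDR = 1.00, exact permutation test p = 0.200). With 1 mouse left out it ranged from 0.56 (without KO1) to 1.17 (without KO5). Among the mice with counts of Y-linked genes, *Mpzl3* was at 6.38 to 16.6 CPM in 3 *Shank3Δ11(-/-)* mice and at 8.89 to 9.51 CPM in 2 *Shank3(+/+)* mice. Among the mice without them, the values were 6.64 and 12.1 CPM against 2.80 and 4.13 CPM. With the Y-linked level as a covariate the log2 fold change was 1.23 (standard error 0.24, edgeR FDR = 1.00).

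Read over the 8 genes, the main comparison of genotypes gave 0 calls in the 7 mice, and other fits are given in the closing sections. Over all genes edgeR also called 0 (0%), DESeq2 6 (0.0275%) and limma-voom 0, and 453 genes (2.08%) had an unadjusted edgeR p below 0.05. Of the 8 genes, *Ncmap*, *Mbp* and *Cldn19* were among the 253 genes (1.16%) with an unadjusted p below 0.05 and a higher level in *Shank3Δ11(-/-)*. Of 16 alternative fits, such a p was found in 15 for *Ncmap*, in 8 for *Mbp*, in 6 for *Mpzl3*, in 2 for *Prx* and in 2 for *Cldn19*. *Cldn19* lost it in DESeq2, in limma-voom and without the filter on low counts. In 0 of the 8 genes were the 3 *Shank3Δ11(-/-)* mice separate from the 4 *Shank3(+/+)* mice, against 1.54% of all genes with every *Shank3Δ11(-/-)* mouse above and 1.3% with every one below. Over all 9 mice 0 of the 8 were separate as well, against 0.322% and 0.363% of all genes. With KO2 and KO4 included, *Ncmap* alone of the 8 kept an unadjusted p below 0.05 (log2 fold change 1.49, standard error 0.61, edgeR p = 0.0316, FDR = 1.00, exact permutation test p = 0.175), where 2.03% of all genes had such a p and 1.16% had it on the higher side. Without KO5, the genes with an unadjusted p below 0.05 were *Ncmap* and *Mpzl3* (FDR = 1.00 for both), where 1.01% of all genes had such a p and 0.553% on the higher side. With KO2 and KO4 added and KO5 left out, they were 0 of 8 in edgeR, against 1.39% of all genes and 0.781% on the higher side. The exact permutation test can give no p below 0.0286 for 3 against 4 mice.

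**Figure D2:**
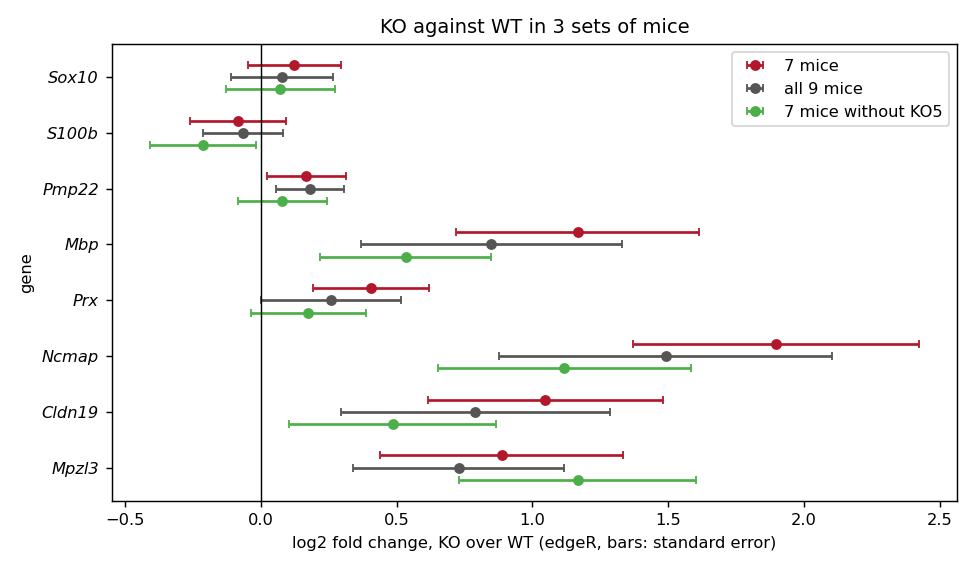
Log2 fold change of *Shank3Δ11(-/-)* over *Shank3(+/+)* for each gene from edgeR, with the standard error as a bar, in the 7 mice of the study, in all 9 mice and in the 7 mice without KO5. *Mbp* moves from 1.17 to 0.53 and *Ncmap* from 1.90 to 1.12 when KO5 is left out, while *Mpzl3* moves from 0.89 to 1.17.

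The myelin genes and the lineage genes were then set against each other in each mouse, as the mean log2 CPM of each group relative to the 9 mice. For the 6 genes other than *Sox10* and *S100b* this level was 0.61, 0.43, -0.08, -0.71 and 1.00 in KO1 to KO5 and between -0.42 and -0.19 in *Shank3(+/+)*. The genes parted in KO3, at 0.66 for *Mpzl3* and 0.14 for *Pmp22* but from -0.86 to -0.13 for *Mbp*, *Prx*, *Ncmap* and *Cldn19*. For *Sox10* and *S100b* the mean level was 0.02, 0.13, -0.12, -0.22 and 0.20 in KO1 to KO5 and between -0.29 and 0.17 in *Shank3(+/+)*. This mean joins genes that parted as well. *Sox10* alone was at 0.28, 0.37, -0.17, -0.56 and 0.21 in KO1 to KO5. *S100b* alone was at -0.24, -0.12, -0.07, 0.11 and 0.19 in the same mice. The myelin level minus the lineage level was 0.59, 0.30, 0.04, -0.49 and 0.80 in KO1 to KO5 and -0.36, -0.40, -0.13 and -0.36 in WT1 to WT4. KO1, KO2, KO3 and KO5 were thus above every *Shank3(+/+)* mouse and KO4 below every one. The place of KO3 rested on the high values of *Mpzl3* and *Pmp22*, and that of KO4 in part on *S100b*. With the wider lists of peripheral myelin and of immature and repair genes in place of the 8, the same difference was 0.13, 0.29, -0.12, -0.31 and 0.37 in KO1 to KO5 and between -0.25 and 0.00 in *Shank3(+/+)*, so that KO3 lay within the range of *Shank3(+/+)*. Per length, the level of *Mbp* divided by that of *Sox10* was 0.958, 0.805, 0.826, 0.606 and 2.16 in KO1 to KO5 and 0.557, 0.382, 0.924 and 0.809 in WT1 to WT4, so that KO5 stood far above the range of *Shank3(+/+)*, KO1 slightly above it and the others inside it. For *Prx* divided by *Sox10* the ratio was 1.84 in KO5, from 1.11 to 1.34 in the other *Shank3Δ11(-/-)* mice and from 0.865 to 1.62 in *Shank3(+/+)*. *Pmp22* divided by *Sox10* had another order, with 39.9 in KO4, 27.8 in KO3, 22.8 in KO5, 16.5 in KO1 and 16.1 in KO2, and from 17.7 to 31.1 in *Shank3(+/+)*.

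**Figure D3:**
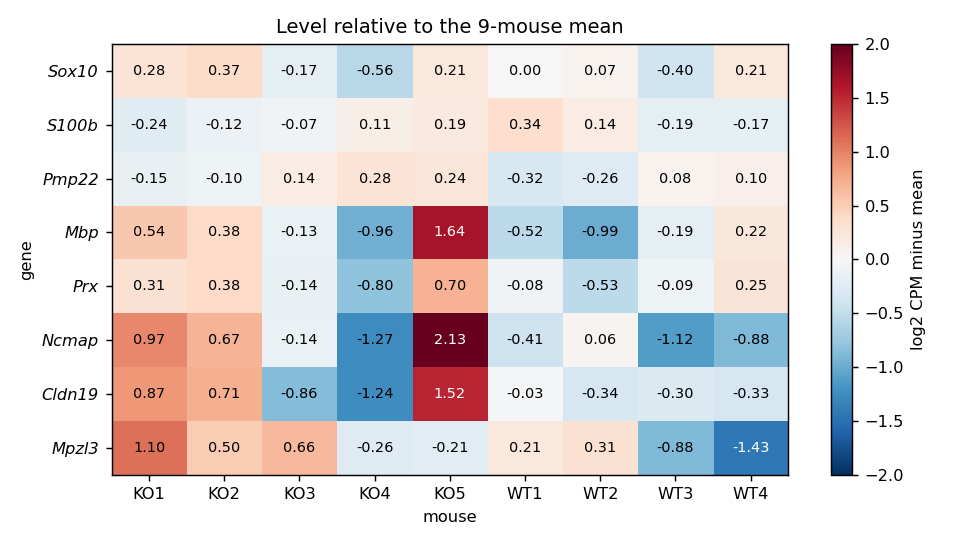
Log2 CPM of each gene in each mouse minus the mean of the 9 mice, with genes in rows and mice in columns, red above and blue below the mean. KO5 reaches 1.64 for *Mbp*, 2.13 for *Ncmap* and 1.52 for *Cldn19*, and KO4 is at -0.96, -1.27 and -1.24 for the same genes.

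The same mice were high or low for several genes. KO5 was the highest mouse for 4 of the 8 genes (*Mbp*, *Prx*, *Ncmap* and *Cldn19*), as it was for 13.9% of all genes tested in the 9 mice. KO4 was the lowest for 4 (*Prx*, *Ncmap*, *Cldn19* and *Sox10*), as it was for 14.6% of all genes. Both held for *Prx*, *Ncmap* and *Cldn19*, and for 1.51% of all genes. KO1, KO2 and KO5 were the 3 highest mice for *Mbp*, *Prx*, *Ncmap*, *Cldn19* and *Sox10*.

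Over the 9 mice, correlations of log2 CPM were computed for all 28 pairs of the 8 genes, and 19 were positive. An exact permutation test with adjustment over the 28 pairs gave 4 pairs with an adjusted p below 0.05, and 1 pair in the 7 mice of the study. *Mbp* and *Prx* had r = 0.94 (exact permutation p = 2.43e-04, adjusted p = 0.00679) and rho = 0.90 (exact permutation p = 0.00203, adjusted p = 0.0284). Without the mice farthest from the median of *Mbp*, KO5 and WT2, r stayed at 0.94. *Prx* and *Cldn19* had r = 0.87 (exact permutation p = 0.00290, adjusted p = 0.0271) and rho = 0.92 (exact permutation p = 0.00131, adjusted p = 0.0284), with r = 0.67 without KO4 and KO5. *Ncmap* and *Cldn19* had r = 0.88 (exact permutation p = 0.00146, adjusted p = 0.0204) and rho = 0.73 (exact permutation p = 0.0311, adjusted p = 0.124), with r = 0.71 without KO4 and KO5. *Mbp* and *Cldn19* had r = 0.84 (exact permutation p = 0.00401, adjusted p = 0.0281) and rho = 0.77 (exact permutation p = 0.0214, adjusted p = 0.119), with r = 0.79 without KO5 and WT2. The other pairs of these 4 genes had adjusted p values above 0.05. *Prx* and *Ncmap* had r = 0.72 (exact permutation p = 0.0297, adjusted p = 0.104) and rho = 0.70 (exact permutation p = 0.0433, adjusted p = 0.135), with r = 0.32 without KO4 and KO5. *Mbp* and *Ncmap* had r = 0.78 (exact permutation p = 0.0129, adjusted p = 0.0723) and rho = 0.67 (exact permutation p = 0.0589, adjusted p = 0.165), with r = 0.74 without KO5 and WT2 and 0.53 without KO5 alone. *Ncmap* and *Mpzl3* had r = 0.49 (exact permutation p = 0.184, adjusted p = 0.468) and rho = 0.63 (exact permutation p = 0.0760, adjusted p = 0.194), but r = 0.86 without KO4 and KO5 and 0.81 without KO5 alone.

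*Sox10* had r = 0.76 with *Prx* (exact permutation p = 0.0185, adjusted p = 0.0744) and rho = 0.83 (exact permutation p = 0.00827, adjusted p = 0.0754), with r = 0.58 without KO4 and KO5. *Sox10* and *S100b*, both lineage genes, had r = -0.14 (exact permutation p = 0.709, adjusted p = 0.946) and rho = -0.18 (exact permutation p = 0.644, adjusted p = 0.858), with r = -0.40 without KO4 and WT3. The mice with and without counts of Y-linked genes number 5 and 4, fewer than the 6 mice required for a correlation within each, and the genotypes number 5 and 4 as well. The pooled correlations therefore have no value within these divisions.

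**Figure D4:**
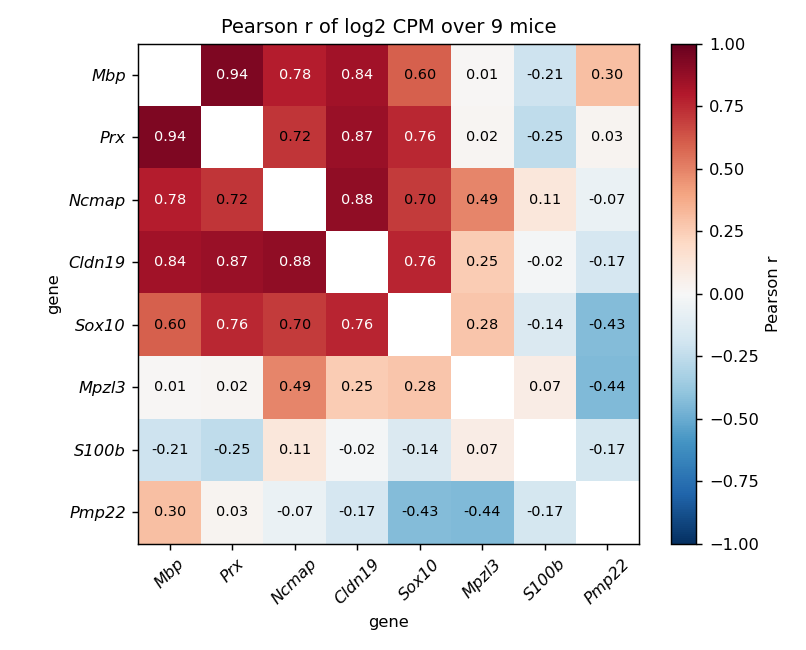
Pearson r of log2 CPM over the 9 mice for each pair of the 8 genes, from blue at -1 to red at 1. The block of *Mbp*, *Prx*, *Ncmap* and *Cldn19* holds r from 0.72 to 0.94, and *Sox10* has r from 0.60 to 0.76 with these genes. *Mpzl3* has r = 0.49 with *Ncmap*, and 0.81 without KO5.

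Of 21727 other genes tested in the 9 mice, the 5 whose log2 CPM was most like the mean standardized level of the 8 genes were *Gm10605* (r = 0.99), *Gldn* (0.98), *Armc7* (0.98), *Ugt8a* (0.98) and *Dusp15* (0.98). These r describe 9 mice and were picked as the highest of many, and no p is given. *Gldn* encodes gliomedin, which Schwann cells place at the node of Ranvier, *Ugt8a* the enzyme that makes the myelin lipid galactosylceramide, and *Dusp15* a phosphatase known from myelinating glia. These 3 genes were also on a list of peripheral myelin genes described with the other lists. *Gm10605*, a long intergenic noncoding RNA (chromosome 7 from 99625936 to 99631711), was at 9.83 CPM in KO5, 7.43 CPM in KO2, 6.73 CPM in KO1, 3.86 CPM in KO4 and 5.03 CPM in KO3, and at 4.40 to 5.75 CPM in *Shank3(+/+)*.

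Because the members differed in how they varied between mice, the sequence before their starts is shown for the 5 genes with an entry in the RefSeq promoter table (GRCm38.p6): 4 genes of myelin and the lineage gene *S100b*. *Mbp*, *Sox10* and *Mpzl3* had no entry. Each sequence is the 250 bases before the annotated start nearest to that of GENCODE M21, printed 5′ to 3′ on the strand of the gene. *Pmp22* has 4 starts in the table, and gene counts do not separate the transcripts from them. Capitals mark the letters CCAAT or ATTGG (the CCAAT box on either strand), GGGCGG or CCGCCC (the GC box) and GCGNGGGNG (a site of EGR factors).
*Pmp22*, chr11:63128732-63128981, plus strand: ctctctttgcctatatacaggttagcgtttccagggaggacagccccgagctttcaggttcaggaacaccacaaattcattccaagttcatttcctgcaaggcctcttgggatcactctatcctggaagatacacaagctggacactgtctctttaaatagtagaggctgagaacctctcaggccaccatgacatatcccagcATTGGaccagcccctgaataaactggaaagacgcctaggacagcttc
*Prx*, chr7:27499074-27499323, plus strand: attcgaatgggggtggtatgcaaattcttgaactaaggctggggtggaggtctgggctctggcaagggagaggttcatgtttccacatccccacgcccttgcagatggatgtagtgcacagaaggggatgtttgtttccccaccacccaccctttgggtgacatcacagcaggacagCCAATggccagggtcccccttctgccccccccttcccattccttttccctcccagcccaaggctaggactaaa
*Ncmap*, chr4:135398228-135398477, minus strand: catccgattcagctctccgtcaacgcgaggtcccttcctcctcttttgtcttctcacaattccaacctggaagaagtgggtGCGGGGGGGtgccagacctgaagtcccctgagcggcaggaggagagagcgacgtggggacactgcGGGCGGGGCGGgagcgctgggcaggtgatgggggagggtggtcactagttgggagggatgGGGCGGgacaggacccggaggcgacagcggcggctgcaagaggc
*Cldn19*, chr4:119255191-119255440, plus strand: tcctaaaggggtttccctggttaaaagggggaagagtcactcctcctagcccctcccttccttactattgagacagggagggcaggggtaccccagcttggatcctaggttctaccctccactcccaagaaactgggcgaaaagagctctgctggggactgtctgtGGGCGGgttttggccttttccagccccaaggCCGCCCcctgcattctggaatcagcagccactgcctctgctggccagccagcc
*S100b*, chr10:76253586-76253835, plus strand: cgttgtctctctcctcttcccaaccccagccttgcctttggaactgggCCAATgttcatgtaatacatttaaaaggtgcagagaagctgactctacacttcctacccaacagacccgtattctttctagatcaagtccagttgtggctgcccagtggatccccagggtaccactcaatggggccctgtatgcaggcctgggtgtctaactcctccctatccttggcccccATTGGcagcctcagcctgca

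The CCAAT letters stood in the sequences of *Pmp22*, *Prx* and *S100b* and in 33.8% of all 32851 promoter windows of this length. The GC box letters stood in those of *Ncmap* and *Cldn19* and in 32.7% of all windows, and the first pair of matches in *Ncmap* share a base. The EGR letters stood in *Ncmap* and in 10.5% of all windows. Searched on both strands, ACAAAG and ACAATG, cores of the sites of SOX factors, and TATAAA had no match in the 5 sequences, and stand in 16.5%, 10.7% and 12.4% of all windows. CCAAT thus stood in genes of both the myelin and the lineage group, of which the latter is 1 sequence here. A match is a description of the letters and not a binding site.

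Further genes of the Schwann cell were read from lists. For peripheral myelin and promyelin cells 35 symbols other than the 8 were listed, and 34 were found. Among the 35, *Gpr126* and *Adgrg6* name the same gene. Of the 34 found, 33 were tested, and 25 were higher and 8 lower in KO1, KO3 and KO5. An unadjusted edgeR p below 0.05 was found for 8, all of them higher, as for 1.16% of all genes on that side, and 0 were called. The median log2 fold change of the 33 was 0.12, against -0.01 over all genes tested. *Fa2h*, which makes the hydroxylated fatty acids of myelin lipids, was at 1.88, 2.61, 1.04, 0.525 and 3.00 CPM in KO1 to KO5 and at 0.580 to 1.06 CPM in *Shank3(+/+)*, with a fold change on the log2 scale of 1.25 (standard error 0.36, edgeR p = 0.00518, FDR = 1.00, exact permutation test p = 0.0571). *Dusp15* was at 1.94, 1.76, 0.629, 0.289 and 4.40 CPM in KO1 to KO5 and at 0.585 to 0.892 CPM in *Shank3(+/+)* (log2 fold change 1.75, edgeR FDR = 1.00), and *Gldn* at 2.85 CPM in KO5 and at most 0.849 CPM in the other mice (log2 fold change 2.12, edgeR FDR = 1.00). Without KO5 the log2 fold changes were 0.82 for *Fa2h*, 0.91 for *Dusp15* and 0.65 for *Gldn*. *Cd9*, a tetraspanin of many cell types and the list's gene of highest CPM, was at 65.2 to 85.9 CPM in *Shank3(+/+)*, with a log2 fold change of 0.00 (edgeR FDR = 1.00). Without KO5, 25 genes were higher and 8 lower, of which 21 and 4 were so with KO5 too, with a median of 0.07 and 1 gene at an unadjusted p below 0.05 (0.553% of all genes on the higher side). With all 9 mice 3 genes had such a p (1.16%), and with all mice but KO5 0 did (0.781%).

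Of 20 genes of immature and repair Schwann cells, all were tested, and 11 had a higher and 9 a lower mean in KO1, KO3 and KO5. The median of their log2 fold changes was 0.15. An unadjusted edgeR p below 0.05 was found for 2 of them (1.16% of all genes on the higher side), among them *Scn7a*, a sodium channel of nonmyelinating Schwann cells, and 0 were called. *Scn7a* was at 5.20, 2.75, 3.84, 2.34 and 5.77 CPM in KO1 to KO5 and at 2.86 to 3.48 CPM in *Shank3(+/+)* (log2 fold change 0.63, edgeR p = 0.00615, FDR = 1.00, exact permutation test p = 0.0286). *Ncam1*, an adhesion protein that muscle also makes and the list's gene of highest CPM, was at 139 to 197 CPM in *Shank3Δ11(-/-)* and at 149.7 to 190.0 CPM in *Shank3(+/+)*. Without KO5, 10 genes of the list were higher and 10 lower, with a median of 0.01. Of 22 genes of cholesterol synthesis, which supplies the myelin membrane, 2 were higher and 20 lower (median log2 fold change -0.09) and 0 had an unadjusted p below 0.05. Their mean log2 level relative to the 9 mice was -0.64, -0.20, 0.48, 0.23 and -0.003 in KO1 to KO5. In WT1 to WT4 it was -0.41, -0.43, 0.56 and 0.41, so the genotypes overlapped.

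**Figure D5:**
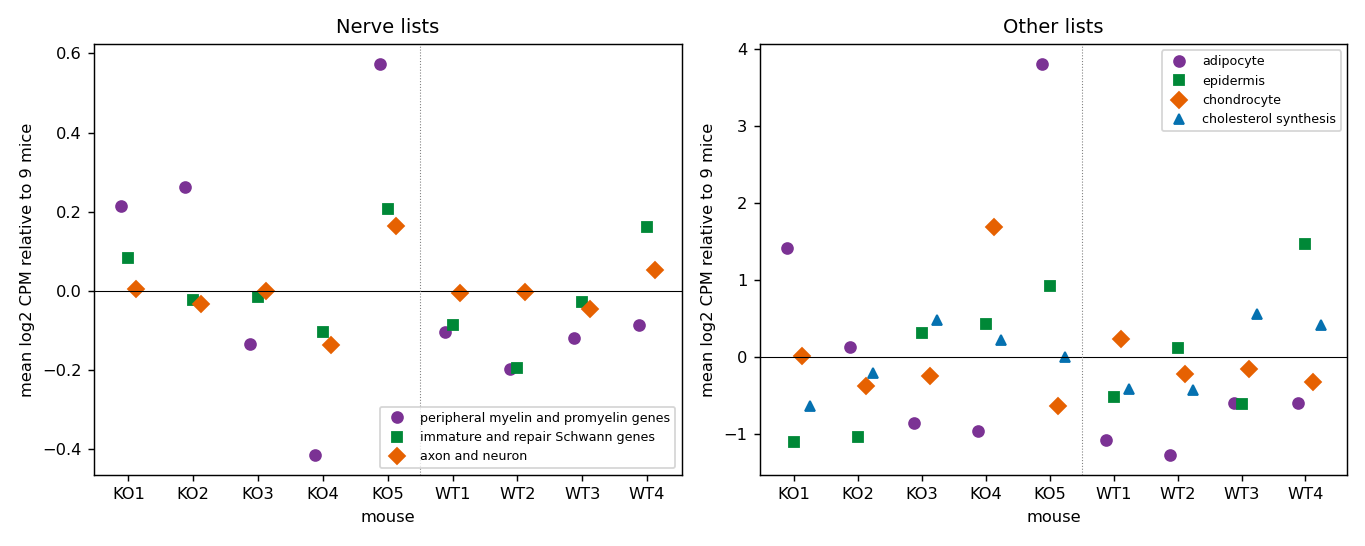
Mean log2 CPM of gene lists per mouse, relative to the 9 mice, with *Shank3Δ11(-/-)* left and *Shank3(+/+)* right of the dotted line. The peripheral myelin list runs from -0.41 in KO4 to 0.57 in KO5 and the immature list from -0.20 to 0.21. On the right, on a wider axis, the adipocyte list is at 3.81 in KO5 and the chondrocyte list at 1.69 in KO4.

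Markers of other cell types were read in the same mice. The summed level of 12 adipocyte genes was 1264 CPM in KO5 and 441, 231, 349.8 and 456 CPM in KO1 to KO4, against 258 to 336 CPM in *Shank3(+/+)*. By this sum KO2 was the lowest of the 9 mice and KO4 the 2nd highest. By the mean log2 level of the same list, in which each gene counts alike, KO5 (3.81), KO1 (1.41) and KO2 (0.14) were the 3 highest, as for *Mbp*, with KO3 at -0.86, KO4 at -0.96 and *Shank3(+/+)* between -1.27 and -0.60. *Adipoq*, adiponectin, was at 78.6, 9.01 and 2.82 CPM in KO5, KO1 and KO2 and at most 1.71 CPM in the others. The part of adipose tissue in the samples in these differences was not tested. The summed level of 12 chondrocyte genes was 553 CPM in KO4, 135 to 234 CPM in the other *Shank3Δ11(-/-)* mice and 164 to 278 CPM in *Shank3(+/+)*, and KO4 also had the largest share of counts on mitochondrial genes, 7.88%. *S100b* in KO4 was the 4th of the 9 mice, and the part of cartilage in its level was not tested.

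For epidermis, where *Mpzl3* is also made, the summed level of 12 genes was 19.1 to 68.6 CPM in *Shank3Δ11(-/-)* and 24.1 to 105 CPM in *Shank3(+/+)*. It was highest in WT4, the mouse with the least *Mpzl3*. The part of skin in the level of *Mpzl3* was not tested. For melanocytes, which also make *Sox10*, the summed level of 10 genes was 25.9 to 39.2 CPM and 25.4 to 40.3 CPM. Among markers of oligodendrocytes, the myelinating cells of the brain and spinal cord, *Mobp* was at most 0.152 CPM and *Mog* at most 0.377 CPM in every mouse. The summed level of the 10 genes of that list was 18.4 to 23.6 CPM in *Shank3Δ11(-/-)*, highest in KO5, and 16.2 to 19.3 CPM in *Shank3(+/+)*. That list shares *Mag* with the peripheral myelin list, so its sum is not particular to oligodendrocytes. For the other cell types, of 12 genes of perineurium and endoneurial fibroblasts 11 were tested and 0 had an unadjusted p below 0.05, as had 0 of 8 endothelial, 0 of 9 macrophage and 0 of 10 muscle fibre genes. Of 9 fibroblast genes tested 1 had such a p, and of 4 oligodendrocyte genes tested 1. Of 7 adipocyte genes tested 5 had such a p, all higher in *Shank3Δ11(-/-)*, where 1.16% of all genes did. The count was 2 in all 9 mice (1.16%) and 3 without KO5 (0.553%). Of 12 genes of axons and neurons 9 were tested, 0 had an unadjusted p below 0.05, and 2 (*Chat* and *Slc18a3*) had no count in any mouse.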

How the data were processed

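RNA of the gastrocnemius of 9 mice was sequenced, 1 library per mouse. The deposited values are raw counts of reads per Ensembl gene: the authors aligned them to mm10 by HISAT2, and featureCounts then summed the pairs aligned in concordance. No normalization was applied. The sources used here do not give the annotation release, the strandedness or how reads matching several places were handled. Symbols were found for 55144 of 55471 IDs, and positions and exon lengths were taken from GENCODE M21 (mm10). *Prx*, *Cldn19* and *Mpzl3* share 300, 90 and 133 exonic bases with transcripts of the opposite strand, so their counts are uncertain to that extent.

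Genes were filtered with filterByExpr (minimum count 10, minimum total 15), leaving 21809 genes for 7 mice and 21735 for 9. Counts were tested with edgeR 4.0.16 in R 4.3.3 (TMM, robust quasi-likelihood), 2-sided, with Benjamini-Hochberg adjustment over all genes tested. Standard errors were derived from the fold change and the F statistic. Beside edgeR, 2-sided exact permutation tests used log2 CPM (prior count 2) over 35 splits of 7 mice, or all 362880 pairings for correlations. Alternatives used DESeq2 1.42.0, limma-voom (limma 3.58.1), RLE scaling, no filter, all 9 mice, the replicate number as a block, a Y-linked covariate and each mouse left out. The tests were tried on simulated data. Figures were drawn with matplotlib 3.10.9.

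The 8 genes and the gene lists were chosen with earlier results of these data known. The text names these 8, up to 3 genes of each list and direction with an unadjusted p below 0.05, each list's gene of highest CPM where it is a Schwann cell list, the 5 genes of most similar pattern, and markers of other cell types. The values of 1 gene named by this rule are not reported here. For the lists of other cell types only their summed levels and defining markers are named. No columns were identical, and nothing states that the mice come from separate litters, so p-values measure the spread between these mice.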

Additional observations from a re-analysis of the deposited data

Results flagged for a closer look

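In 16 groups examined (each of the 8 genes in the 5 *Shank3Δ11(-/-)* and in the 4 *Shank3(+/+)* mice), 1 value lay apart from the rest of its group by Dixon's test. *Cldn19* in WT1, at 5.41 CPM, was above the other *Shank3(+/+)* mice, which lay between 4.37 and 4.50 CPM, by a gap of 0.873 of the range of the group, where 0.829 is the limit for 4 mice. Chance marks about 5% of groups. In KO5, the values of *Mbp*, *Ncmap* and *Cldn19* did not pass the same test.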

How the results depend on the processing

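Of 128 fold changes of the 8 genes under the alternatives, 124 kept their direction and their side of the criterion. *Cldn19* ranged from 0.49 to 1.48 on the log2 scale with 1 mouse left out. It met the criterion without KO3 (1.48), where 4 of all genes tested were called. *S100b* ranged from -0.21 to 0.031 and turned positive without KO1 (0.014) and without WT1 (0.031). Without KO5, *Mbp* went from 1.17 to 0.53 and *Ncmap* from 1.90 to 1.12.

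In a fit of 7 mice with a replicate block, *Mpzl3* met the criterion (log2 fold change 1.20, edgeR FDR = 0.118), 9 genes were called and 844 had an unadjusted p below 0.05. The same fit gave log2 fold changes of 0.24 for *Cldn19*, 0.56 for *Mbp*, 0.17 for *Prx* and 1.36 for *Ncmap*. In that fit 1 immature gene was higher and 1 lower at such a p, and 2 myelin genes were higher. With the block in 9 mice the log2 fold changes of *Cldn19*, *Mbp*, *Prx* and *Ncmap* were 0.17, 0.34, 0.06 and 0.80. *Mpzl3* was at 0.94 there and not called (edgeR FDR = 1.00). In the fit of 9 mice 2 genes were called, 452 had an unadjusted p below 0.05, and 1 immature and 1 myelin gene were higher at such a p. Same-numbered mice correlated at 0.373, 0.0524, 0.357 and 0.101, and KO1, KO3 and KO4 correlated best with their own number while KO2 correlated best with WT1. With 1 pair under 0.1 and no label for a shared litter or day, the numbers were not taken as pairs.

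Calls over all genes numbered 0 in edgeR, 6 in DESeq2, 1 without the filter and 0 to 15 with 1 mouse left out (15 without KO1). Genes at an unadjusted p below 0.05 on either side numbered 453, 442 in all 9 mice and 972 without the filter. They numbered 426 in limma-voom, 595 with the Y-linked covariate and 300 in all mice but KO5. With 1 mouse left out they numbered 224 (without KO5) to 968 (without KO1), and 794 without KO3. Higher myelin genes at such a p numbered 8, 3 in all 9 mice, 5 without the filter, 3 in limma-voom, 5 with the Y-linked covariate, 0 in all mice but KO5, and 1 (without KO5) to 11 (without KO3) with 1 mouse left out. Lower ones numbered 0 to 1. Higher immature genes numbered 2, 1 in all 9 mice, 1 in all mice but KO5 and 1 to 4 with 1 mouse left out. Lower ones numbered 1 with the Y-linked covariate and 0 to 1 with 1 mouse left out. Pairs with an adjusted p below 0.05 numbered 4, and 1 in the 7 mice. The fit of all mice but KO5 was chosen after seeing the data, and the cause of these differences was not tested.

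Reads per mouse limit *Ncmap* most, and 3 to 5 mice per genotype limit every comparison.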
